A study of Mus musculus with 12 samples.

Results

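The chemokine ligand and receptor genes were followed by the DNA methylation of their CpGs, the CG dinucleotides at which mammalian cells place most methyl groups, as mouse B cells divided and became plasmablasts in vivo. Members were all CpGs whose assigned gene symbol starts with Ccl, Ccr, Cxcl or Cxcr and a digit, without Cxcr4, Cxcr5 and Ccr7. This gave 557 of the 760348 CpGs that had at least 10 reads in every library, in 35 genes, of which 29 had at least 5 CpGs within 50 kb of a start site. A second deposited table, with at least 10 reads per fraction, covers 1639598 CpGs. It supplied 71 CpGs for the 10 genes with fewer than 5 CpGs in the first table, so that 39 genes were seen in all.

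Splenic B cells of the B220+ CD43- phenotype were stained with a division-tracking dye (CFSE or CTV) and moved into μMT hosts, which lack mature B cells of their own. The sample labels give the strain B6.SJL-Ptprca Pepcb/BoyJ, females and an age of 8 weeks, while the series text names C57/BL6J donors. All cells, undivided ones included, were exposed in the host to LPS, a bacterial ligand of Toll-like receptor signalling in B cells, and were sorted on day 3. The fractions were undivided cells (Div0), cells after 1, 3 or 5 divisions (Div1, Div3, Div5), and cells of 8 or more divisions without the plasmablast marker CD138 (Div8neg) or with it (Div8pos). Each came once from each of 2 hosts, numbered 196 and 197, which makes 12 libraries. Since Div8neg and Div8pos have no upper limit of divisions, CD138 and further divisions cannot be told apart between them.

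Chemokines are small secreted proteins that bind G protein-coupled receptors on leukocytes and guide their migration. They are named by the spacing of conserved cysteines, as CC or CXC ligands, with receptors named after the class they bind. In B cells, chemokine receptors set the position within lymphoid organs, and plasmablasts exchange them when they leave follicles. Many CC ligand genes lie in clusters of recent gene copies, so neighbouring CpGs of a cluster may be assigned to either gene.

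Coverage summed over CpGs, which counts a read once for every CpG it covers, was between 17969105 and 56775157 per library. Host 197 was deeper in every fraction, and the member CpGs had a median of 21 to 64 reads. At Div8pos and Div0, CpGs near the start sites of the B cell genes Cd79a (7.99% and 7.96%) and Pax5 (2.18% and 0%) were nearly free of methylation. Those of the T cell gene Cd3e (82.9% and 97.2%), the myeloid genes Itgam (78.8% and 96.0%) and Elane (88.2% and 93.9%), the NK cell genes Ncr1 (89.2% and 92.3%) and Prf1 (88.1% and 95.7%) and the erythroid gene Slc4a1 (77.5% and 94.3%) were methylated. Lck (23.4% and 34.1%) and Mpo (32.3% and 38.0%) lay between, and 10 of the 22 markers had no CpG there in the table. A level is an average over sorted cells, so fewer methylated cells and partial loss in each cell cannot be told apart.

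The sequences below are the 250 bases before the start of a gene whose start-site CpGs lost methylation, Ccl22, and of one whose start-site CpGs were nearly unmethylated in all fractions, Cxcl2. They are RefSeq sequences of GRCm38.p6, both on the + strand, given 5′ to 3′, at chr8:94745434-94745683 and chr5:90903649-90903898. Capitals mark the CGs that correspond, by distance from the start, to CpGs covered in the mm9 files.
Ccl22: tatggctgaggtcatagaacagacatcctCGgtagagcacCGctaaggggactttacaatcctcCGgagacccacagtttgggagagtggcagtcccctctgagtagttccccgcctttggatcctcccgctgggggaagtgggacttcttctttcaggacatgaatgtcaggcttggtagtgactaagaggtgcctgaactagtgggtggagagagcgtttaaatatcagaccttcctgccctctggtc
Cxcl2: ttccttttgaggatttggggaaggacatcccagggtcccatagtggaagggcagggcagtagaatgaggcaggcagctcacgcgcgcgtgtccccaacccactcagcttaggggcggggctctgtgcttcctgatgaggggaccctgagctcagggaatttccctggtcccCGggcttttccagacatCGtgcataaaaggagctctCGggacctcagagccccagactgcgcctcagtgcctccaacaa
The Ccl22 window holds 6 CGs at 53.6% G and C, and the Cxcl2 window 9 CGs at 60.0%, against a median of 6 CGs over 32851 mouse promoter windows of this length. Each holds 1 CCGG, the site cut by MspI, as do 47.1% of all windows, and neither holds the TaqI site TCGA, which 18.5% of windows hold. The last pair of capitals in Ccl22 lies in its CCGG. GGAATTTCC, a form of the NF-kB binding motif, was searched on both strands and was found in 94 windows (0.286%), among them those of the ligand genes Cxcl1, Cxcl2 and Cxcl3 and the receptor gene Ccr3. In Cxcl2 it starts at -96, counted from the start site.

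Chemokine and receptor CpGs were more methylated than the average CpG in every fraction and lost methylation late. Their mean held at 68.7% ± 0.149 in Div0, 68.8% ± 0.275 in Div1 and 68.6% ± 0.261 in Div3 (SD over 2 hosts). It was 67.7% ± 0.575 in Div5, 65.4% ± 0.375 in Div8neg and 62.1% ± 0.437 in Div8pos. The corresponding means of all CpGs were 56.0%, 55.8%, 55.7%, 55.2%, 53.2% and 49.9%. Within hosts, Div8pos differed from Div0 by -6.60 points (SD 0.288), against -6.11 (SD 0.207) over all CpGs. Div8neg differed from Div0 by -3.33 points (SD 0.226), against -2.86 over all CpGs, and Div5 by -1.02 (SD 0.426), against -0.790. At Div1 and Div3 the differences from Div0 were 0.0190 (SD 0.126) and -0.163 (SD 0.112). Div8pos lay 3.27 points under Div8neg in the mean (a difference of -3.27, SD 0.0624), against -3.25 over all CpGs. Both hosts moved the same way at Div3, Div5, Div8neg and Div8pos, and opposite ways at Div1. CpGs at 80% or more made up 48.7% of the members at Div8pos and 63.2% at Div0. Those between 20 and 80% made up 27.5% at Div8pos and 13.1% at Div0, and those under 20% made up 23.9% and 23.7%.

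**Figure D1:**
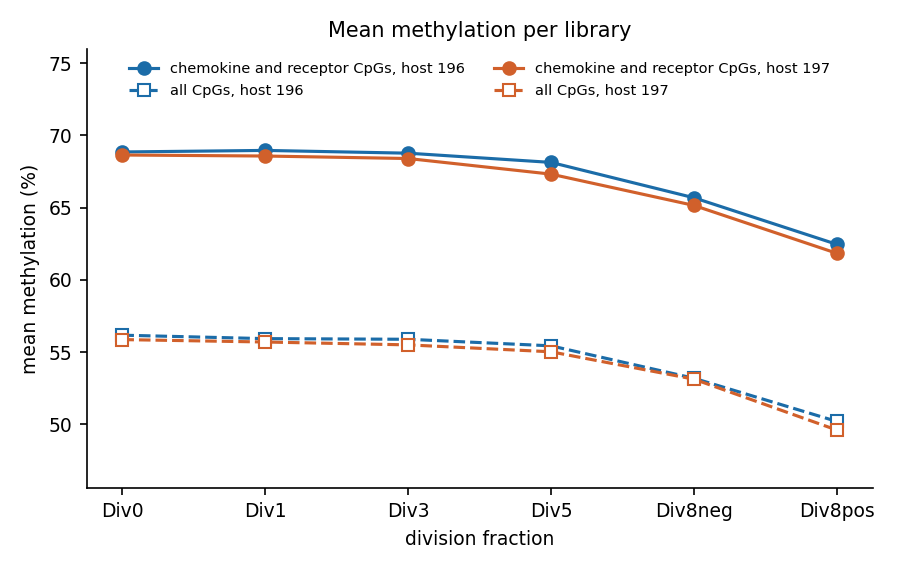
Mean methylation (percent, vertical axis) of the 557 chemokine and receptor CpGs (filled circles) and of all 760348 CpGs (open squares) in each of the 12 libraries, by division fraction and host. Both lines fall mainly at Div8neg and Div8pos, the members to 65.4% and 62.1%, against 68.7% at Div0.

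A CpG was called lower or higher where a quasi-binomial test of its reads, adjusted over all CpGs, gave p under 0.05 with a difference of 20 points or more between means. At Div8pos, 35 member CpGs in 18 genes (6.28%) were lower than at Div0, where 6.61% of all CpGs were lower, and 0 were higher (background 0.0271%). The members' share was thus near the background. Counting just the CpGs that started at 20% or more and so could fall by that much, 35 of 425 members (8.24%) and 10.8% of all CpGs were lower. The 35 CpGs lay at a median of 67.1% at Div8pos and 94.2% at Div0, fell by 20.5 to 54.0 points, and had median coverages of 18 to 71.5 reads. In all 35 the values of both hosts at Div8pos were below both at Div0, a separation that choosing CpGs by these same values favours. A further 44 member CpGs had an adjusted p under 0.05 and fell by 10 to 20 points. At Div8neg, 7 member CpGs (1.26%, background 0.781%) were lower than at Div0, in Ccl22, Ccr6 and Ccl28, and 6 of these were among the 35. At Div5, 2 CpGs (0.359%, background 0.123%), both in Ccr6, were lower. Div8pos against Div8neg gave 2 lower CpGs (0.359%, background 0.636%). By the same test, 0 member CpGs were lower at Div1 (background 0%) or Div3 (background 0.027%), and 0 also by limma on log ratios. The quasi-binomial p, unadjusted, was under 0.05 for 36 at Div1 (19 lower, 17 higher) and 32 at Div3 (18 lower, 14 higher). No comparison had a higher member CpG, against backgrounds for higher of 0% (Div1), 0.00118% (Div3), 0.00552% (Div5), 0.0397% (Div8neg) and 0.00697% for Div8pos against Div8neg. At an unadjusted p under 0.05, 7 were higher at Div8pos and 4 at Div8neg.

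These counts rest on a dispersion shared by all CpGs and on the deeper host. When every CpG was given its own dispersion, 0 CpGs of the whole table passed in any comparison, and 98 member CpGs had an unadjusted p under 0.05 for Div8pos against Div0. Without Div0 of host 197 the 35 became 8 and the 7 at Div8neg became 2. Without Div8pos of host 197 the 35 became 20, and without Div8neg of host 197 the 7 became 4. The 2 calls at Div5 were lost without Div5 of host 197, and the 2 of Div8pos against Div8neg without either Div8neg library or without Div8pos of host 197. Only 5 of the 35 kept their call whichever of the 12 libraries was left out: 3 CpGs before the start of Ccl22 and 2 after the start of Ccr6.

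By class of gene, 19 of 174 CpGs of CC ligands (10.9%), 8 of 272 of CXC ligands (2.94%), 6 of 86 of CC receptors (6.98%) and 2 of 25 of CXC receptors (8%) were lower at Div8pos than at Div0. The share over all CpGs was 6.61%. These classes also started at unlike levels, with Div0 means of 74.8%, 65.1%, 61.0% and 92.6% in that order. By position, 8 of 87 promoter CpGs (9.20%) were lower, against 2.22% of all promoter CpGs, and the Div0 means of these were 26.5% for members and 15.8% for all. Intergenic CpGs had 6.45% lower, against 9.45% of all intergenic CpGs, and intronic ones 3.90% against 8.60%. Differences between these shares were not tested. The plot by distance shows the deepest losses, over 30 points, at 7 CpGs within 500 bp of a start site and at 1 CpG 16475 bp from that of Ccl25.

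**Figure D2:**
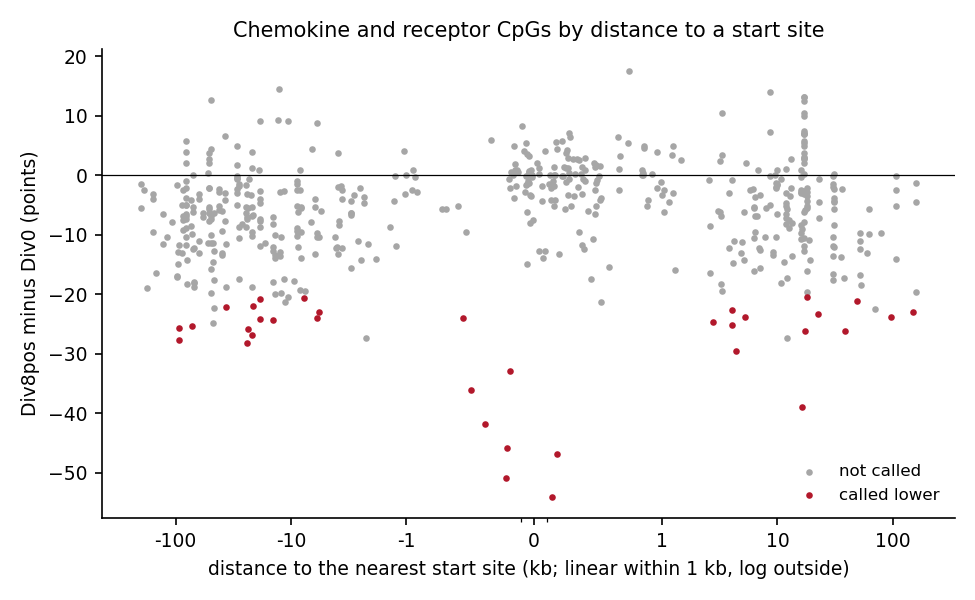
Difference in methylation, Div8pos minus Div0 (percentage points, vertical axis), of the 557 member CpGs by distance to the nearest start site (kb, linear within 1 kb and logarithmic outside). Red points are the 35 CpGs called lower, of which 8 lie within 1 kb and 23 beyond 5 kb of a start site.

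At gene level, the mean over a gene's CpGs within 50 kb of a start site was tested with limma over 16505 genes and called at an adjusted p under 0.05 and at least 10 points. At Div8pos, 8 of the 29 measured genes were lower than at Div0 (27.6%, background 15.7%) and 0 were higher (background 0%). They were 5 of 11 CC ligand genes (Ccl22, Ccl9, Ccl12, Ccl28 and Ccl1), 0 of 9 CXC ligand genes, 1 of 7 CC receptor genes (Ccr6) and both CXC receptor genes (Cxcr1 and Cxcr3). A further 17 genes had a limma adjusted p under 0.05 and fell by less than 10 points, so the size limit sets the count. The median difference of the 29 genes was -6.02 points, against -5.21 over all genes, and 27 of the 29 were lower in both hosts. At Div8neg, 1 gene, Ccl22, was lower than at Div0 (3.45%, background 1.49%). Against Div8neg, Div8pos was lower in Ccl12, Ccl22 and Ccl9 (10.3%, background 2.09%). Differences between these shares and their backgrounds were not tested. Member CpGs also started at a higher mean than all CpGs (68.7% against 56.0% at Div0). For Div1, Div3 and Div5 against Div0, limma called 0 member genes lower or higher (backgrounds for lower 0%, 0% and 0.103%), with 2, 1 and 3 genes at an unadjusted p under 0.05. The backgrounds for higher genes were 0% at Div1 and Div3, 0.00606% at Div5, 0.0121% at Div8neg and 0.00606% for Div8pos against Div8neg, where 0 member genes were higher by limma.

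**Figure D3:**
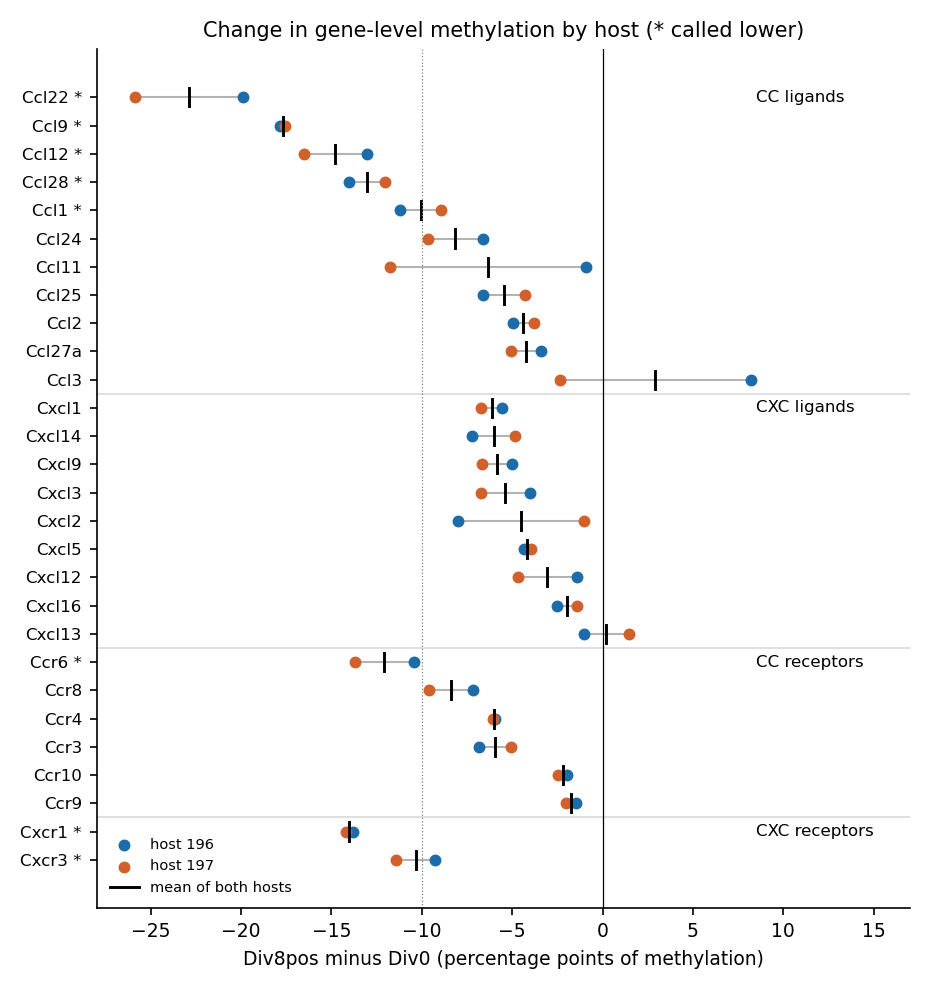
Difference in gene-level methylation, Div8pos minus Div0 (percentage points, horizontal axis), of 28 of the 29 genes, with 1 point per host and a bar at their mean; the dotted line marks the limit of 10 points and asterisks the 8 genes called lower. Ccl22 stands at -22.9, and Ccl3 and Cxcl13 have hosts on both sides of 0.

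Ccl22, a CC ligand of the receptor CCR4 that activated B cells and dendritic cells can secrete, lost most. Over its 8 CpGs (chromosome 8, 97245602 to 97283320, mm9) the level in hosts 196 and 197 was 54.2% and 50.3% at Div8pos, against 74.1% and 76.2% at Div0. It fell by 22.9 points (SE 3.18, adjusted p = 0.000159 by limma). Both Div8pos values were below both Div0 values. At Div8neg the hosts had 69.0% and 58.5%, a difference from Div0 of -11.4 points (limma adjusted p = 0.0201) that did not pass without Div0 of either host (adjusted p = 0.0631 and 0.0857) or without Div8neg of host 197, where it was -6.17 points. Div8pos was 11.5 points below Div8neg (a difference of -11.5, limma adjusted p = 0.0149), and this did not pass without Div8neg of host 196, at -6.25 points, or without Div8pos of host 197, at -9.54.

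The greatest falls in Ccl22 were at the start site, at 4 neighbouring CpGs between 97269196 and 97269398, the only run of 3 or more lower CpGs at most 500 bp apart among the members. The first of them, at -387 bp from the start and outside the sequence above, had 48.0% and 51.3% at Div8pos, against 94.4% and 88.6% at Div0. The CpG at -220, the first in capitals, had 20.9% and 29.5% at Div8pos, against 69.7% and 82.4% at Div0, with 43, 78, 33 and 68 reads. It fell by 50.8 points (quasi-binomial adjusted p = 7.45e-11). Its mean was 76.0% at Div0, 78.4% at Div1 and 70.9% at Div3, then 50.9% at Div5, 47.8% at Div8neg and 25.2% at Div8pos. The CpG at -209 had 37.2% and 39.7% at Div8pos, against 84.8% and 83.8% at Div0, and that at -185, in the MspI site, 62.5% and 71.7% against 100% in both hosts. The CpG nearest the start thus kept most methylation, and the hosts did not overlap between Div8pos and Div0 at any of the 4. At Div8neg the 3 CpGs nearest the start were lower than at Div0 too, with means of 47.8%, 60.3% and 72.1%. There the hosts stood apart: the CpG at -220 had 60.9% in host 196 and 34.7% in host 197, on 23 and 49 reads. These 3 calls at Div8neg were lost without Div0 or Div8neg of host 197, and that at -209 also without Div0 of host 196. An intergenic CpG at -23981 bp had 83.0% and 60.7% at Div8pos and 69.4% and 79.0% at Div8neg, against 100% in both hosts at Div0. It fell by 28.2 points at Div8pos and by 25.8 at Div8neg. The 2 CpGs of this gene that lie nearer the start of the chemokine gene Cx3cl1 did not pass in any of these comparisons.

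**Figure D4:**
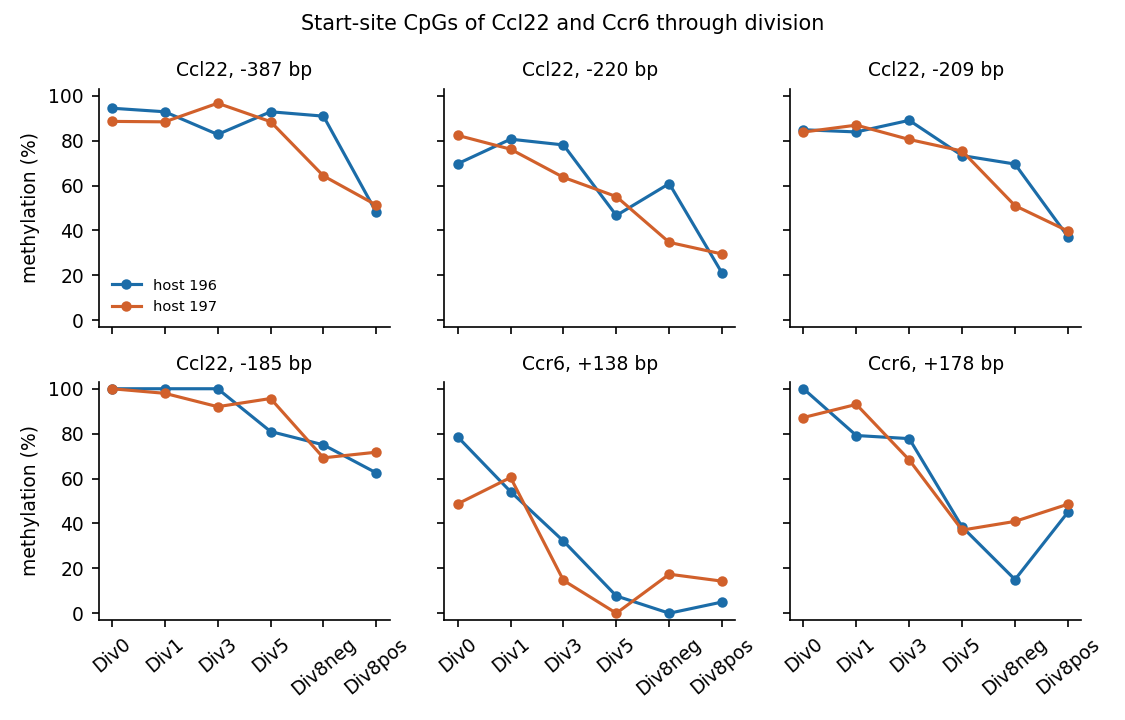
Methylation (percent, vertical axis) by division fraction in hosts 196 and 197 at the 4 Ccl22 and 2 Ccr6 CpGs near the start site that were lower at Div8pos, each panel titled with the distance from the start. The Ccr6 CpGs are already low at Div5 (means 3.85% and 37.7%), while Ccl22 CpGs are lowest at Div8pos.

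The other lower CC ligand genes code for attractants of monocytes, T cells and mucosal lymphocytes. Ccl9, a ligand of CCR1 in the mouse, had 73.0% and 77.7% at Div8pos, against 90.8% and 95.3% at Div0, over 6 CpGs (chromosome 11, 83374926 to 83389530). It fell by 17.7 points (SE 2.26, adjusted p = 9.83e-05 by limma). Its hosts had 85.5% and 91.2% at Div8neg, 13.0 points above Div8pos in the mean (Div8pos minus Div8neg -13.0, limma adjusted p = 0.002). Its exonic CpG 2784 bp from the start had 76.5% and 74.4% at Div8pos, against 100% in both hosts at Div0. Ccl12, a monocyte attractant that binds CCR2, had 71.2% and 70.1% at Div8pos, against 84.2% and 86.7% at Div0, and fell by 14.8 points (SE 2.41) over 5 CpGs. Against Div8neg, at 83.8% and 78.6%, its difference of -10.6 points (limma adjusted p = 0.00651) dropped to -7.99 without Div8neg of host 196. For both genes the Div8pos values lay below those of Div8neg and of Div0 in each host.

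Ccl28, made by mucosal epithelia and known to attract plasmablasts that carry CCR10, fell by 13.0 points (SE 1.10, adjusted p = 1.15e-05 by limma), with 82.5% and 83.1% at Div8pos, against 96.5% and 95.1% at Div0. The mm9 files place its 8 CpGs on the unplaced sequence 13_random, 360018 to 396446. Its promoter CpG at -558 bp had 61.9% and 80.7% at Div8pos, against 95.5% and 95.1% at Div0, so the loss was larger in host 196. Another, at -2467 bp, was lower at Div8neg only by call, with 85.7% and 68.8% at Div8neg, against 100% in both hosts at Div0; at Div8pos it had 86.5% and 85.0%. Ccl1, a T cell product that binds CCR8, had 80.5% in both hosts at Div8pos, against 91.7% and 89.4% at Div0, over 27 CpGs. It fell by 10.1 points (SE 1.30, adjusted p = 0.000105 by limma), and by 8.91 without Div0 of host 196, under the limit. Its promoter CpG at -495 bp (chromosome 11, 81993810) had 61.5% and 46.5% at Div8pos, against 89.5% and 90.7% at Div0, and fell by 36.1 points (quasi-binomial adjusted p = 0.000191). A pair of intergenic CpGs at -92653 and -92874 bp was also lower, and each of the 2 calls was lost when any 1 of the 4 compared libraries was left out.

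Of the CC ligand genes that were not called, Ccl25, the ligand of CCR9 in thymus and gut, had 54.1% and 55.6% at Div8pos, against 60.7% and 59.9% at Div0 (difference -5.45 points, SE 0.755). Its 2 lower CpGs were intergenic. The stronger, 16475 bp from the start (chromosome 8, 4366064), had 31.8% and 25.7% at Div8pos, against 71.0% and 64.6% at Div0. One more, at 4380179, was lower against Div8neg only: 76.7% and 79.1% at Div8pos, against 100% in both hosts at Div8neg. Ccl11, Ccl24, Ccl2 and Ccl27a had differences from -8.14 to -4.24 points, and Ccl11 moved mainly in host 197. Ccl3, an inflammatory ligand of CCR1, had 27.8% and 18.0% at Div8pos, against 19.6% and 20.4% at Div0, so its hosts moved in opposite directions (difference 2.92, limma adjusted p = 0.5). The mm9 copies of Ccl27a lie in a multicopy locus on chromosome 4, where reads may be split between near-identical genes.

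CXC ligand genes had differences of -6.13 to 0.22 points, and 0 of 9 were called by limma (background 15.7%). Cxcl12, the stromal ligand that retains plasma cells in bone marrow, was the gene with most CpGs, 55 within 50 kb. It had 45.1% and 41.6% at Div8pos, against 46.6% and 46.3% at Div0 (difference -3.06, SE 1.03), and 3 of its CpGs, 22518 to 151125 bp from the start, were lower by 23.0 to 23.8 points. Cxcl5, an attractant of neutrophils, had 40.7% and 43.3% at Div8pos, against 45.1% and 47.3% at Div0. Both of its lower CpGs were intergenic, and the one at 91166572 had 56.5% and 55.9% at Div8pos, against 83.3% and 82.7% at Div0. Over the CpGs within 5 kb of the start the Cxcl5 difference was 1.79 points. Cxcl14 had 1 lower CpG against Div0 and another against Div8neg, the second with 78.6% and 70.0% at Div8pos, against 96.3% and 100% at Div8neg.

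Cxcl13, the ligand that draws B cells into follicles, had 70.4% and 71.7% at Div8pos, against 71.5% and 70.2% at Div0, a difference of 0.22 points (SE 1.10, adjusted p = 0.862 by limma). That average joined CpGs with differences of both signs. Its 2 lower CpGs, 38158 and 49336 bp from the start, fell by 26.2 and 21.2 points. A dense stretch of 23 CpGs (chromosome 5, 96402972 to 96403104), 17013 to 17145 bp from the start, averaged 62.9% at Div8pos and 59.1% at Div0, and 18 of the 23 had a positive difference. None of the 23 was called by the quasi-binomial test. They share reads and are not independent.

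Most start-site CpGs that carried little methylation in undivided cells still did at Div8pos. Of the 143 member CpGs within 1 kb of a start site, 112 in 12 genes were under 20% at Div0, and they averaged 4.13% at Div8pos and 4.09% at Div0. Of these, 3 were at 20% or more at Div8pos, 1 of Cxcl5 and both of Ccl3, and none was called by the quasi-binomial test. The Ccl3 CpGs had 23.6% and 20.7% at Div8pos, against 6.02% and 15.3% at Div0, and at both host 196 was the higher at Div8pos (35.3% and 29.4%, against 12% and 12% in host 197). In Cxcl2, a neutrophil attractant rapidly made after LPS, the 5 such CpGs lay between 1.28% and 9.60% at Div8pos and between 0% and 11.5% at Div0, those in capitals above included. Its 8 intergenic CpGs, 6143 to 6341 bp from the start, had 80.3% or more in both fractions. The 28 such CpGs of Cxcl12 reached at most 6.82% at Div8pos and 10.4% at Div0, and the 14 of Ccl25 at most 4.27% and 3.50%. The 17 assigned to Ccr9 reached at most 6.90% and 13.3% and lie at start sites of other genes. Of the 557 members, 68 had another gene's start site as the nearest, at any distance. The 31 start-site CpGs at 20% or more averaged 60.4% at Div8pos and 76.9% at Div0, and 8 of them (25.8%) were called, against 10% of all 27618 such CpGs, a difference that was not tested: all 4 of Ccl22, both of Ccr6 and the single ones of Ccl1 and Ccl28. Those of Ccl11, Ccr4 and Cxcl9 stayed over 86% on average and were not called.

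Among receptors, Ccr6, the receptor for CCL20 that mature B cells carry, was the only member gene with CpGs called lower at Div5. Over 21 CpGs (chromosome 17, 8420643 to 8458039) it had 65.5% and 63.9% at Div8pos, against 76.0% and 77.6% at Div0, and fell by 12.1 points (SE 1.61, adjusted p = 0.000124 by limma). Its 2 CpGs with the greatest falls lie after the start site, at 8436811 and 8436851. In hosts 196 and 197 the CpG at +138 had 78.6% and 48.7% at Div0, 54.2% and 60.5% at Div1, and 32.1% and 14.6% at Div3. It then had 7.69% and 0% at Div5, 0% and 17.4% at Div8neg, and 5.0% and 14.3% at Div8pos. Coverage was 13 to 43 reads. Its difference from Div0 was -59.8 points at Div5 (quasi-binomial adjusted p = 3.71e-05), -54.9 at Div8neg (adjusted p = 0.000935) and -54.0 at Div8pos (adjusted p = 7.98e-05). All values from Div3 on were below both Div0 values, although the Div0 hosts stood apart, and the Div3 difference of -40.3 points did not pass (quasi-binomial adjusted p = 0.316).

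The CpG at +178 followed at a higher level, although being close to that at +138 it may share reads with it. It had 100% and 87.2% at Div0, 79.2% and 93.0% at Div1, and 77.8% and 68.3% at Div3. After more divisions it had 38.5% and 37.0% at Div5, 15.0% and 40.9% at Div8neg, and 45.0% and 48.6% at Div8pos. Its differences from Div0 were -55.8 points at Div5, -65.6 at Div8neg and -46.8 at Div8pos (quasi-binomial adjusted p = 0.000342, 2.01e-06 and 0.000146). Div8pos and Div8neg did not differ by the test at either CpG (differences of 0.947 and 18.8 points, quasi-binomial adjusted p = 0.971 and 0.453), on 20 to 35 reads. At +138 the Div8neg call was lost without Div8neg of host 196 (largest quasi-binomial adjusted p = 0.119), and both Div5 calls without Div5 of host 197. A CpG 97 bp before the start was low throughout, at 13.0% at Div8pos and 4.79% at Div0. An intronic CpG at +4402 had 72.7% and 60.4% at Div8pos, against 92.3% and 100% at Div0. The 9 exonic CpGs further downstream stayed between 76.9% and 98.1% at Div8pos, against 94.1% to 100% at Div0, and 0 were called. The Ccr6 start used by mm9 did not match the promoter windows at hand, so no sequence is shown.

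Cxcr1, a receptor of neutrophil-attracting ligands, had 79.99% and 78.7% at Div8pos, against 93.8% and 92.9% at Div0, and fell by 14.0 points (SE 1.10, adjusted p = 8.07e-06 by limma). At Div8neg it had 85.9% and 83.4%, between both. Its 15 CpGs all lie between -14430 and -7575 bp (chromosome 1, 74248781 to 74255636), and 1 of them passed alone. Cxcr3, the receptor of interferon-induced ligands found on effector T cells and some plasma cells, had 80.9% and 82.1% at Div8pos, against 90.1% and 93.5% at Div0. It fell by 10.3 points (SE 1.70, adjusted p = 0.000439 by limma), and by 9.73 without Div8pos of host 196 and by 8.65 without Div0 of host 197, both under the limit. Its 7 CpGs lie 17906 to 18046 bp from the start (chromosome X, 98911439 to 98911579). Neither CXC receptor gene had a member CpG within 5 kb of its start in this table.

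Of the other receptor genes, Ccr8, Ccr4 and Ccr3 had differences between -8.39 and -5.96 points with an adjusted p under 0.05, and Ccr8 and Ccr9 held 1 lower CpG each. Ccr10, which guides plasma cells to mucosal tissue, had 5.62% at Div8pos and 7.82% at Div0 (difference -2.20, limma adjusted p = 0.099). Most of its CpGs sit in an unmethylated stretch at -914 to -1038, nearest the start of Plekhh3. Ccr9, a gut-homing receptor, had 10.8% and 10.2% at Div8pos, against 12.3% and 12.2% at Div0. Of the 19 CpGs in this mean, 17 lie at start sites of other genes, as given above.

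For the 10 genes taken from the second table, 3 of 71 CpGs were lower at Div8pos than at Div0 (background 6.36%), 1 each in Ccl20, Ccl5 and Ccl8, and 0 were higher (background 0.0235%), with 20 at an unadjusted p under 0.05. In the other 5 comparisons 0 were called (backgrounds for lower 6.1e-05% for Div1, 0.0137% for Div3, 0.0711% for Div5, 0.425% for Div8neg and 0.302% for Div8pos against Div8neg, and for higher 0%, 0.000671%, 0.00238%, 0.017% and 0.00348% in that order), with 5, 1, 6, 6 and 9 at an unadjusted p under 0.05. The CpG of Ccl5, a T cell and monocyte attractant, had 50.0% and 64.7% at Div8pos, against 100% and 85.9% at Div0, on 18, 51, 27 and 71 reads. It lies at -16838 bp. That of Ccl8 had 30% and 66.0% at Div8pos, against 75.0% and 96.9% at Div0. That of Ccl20, the ligand of CCR6, had 50.0% in host 196 on 2 reads in both fractions, so its call rests on host 197, with 18.2% at Div8pos and 85.7% at Div0. Of the 71 CpGs, 54 had fewer than 10 reads in at least 1 library, and Ccl7 and Ccr1l1 were seen at 1 and 2 CpGs. The other 4 genes with CpGs in both tables (Ccl26, Ccr2, Cxcl15 and Cxcr2) and Ccl17 had none called.

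Of 70 other genes of chemokine signalling, listed from G proteins to Rac activators, 60 were measured. By limma, 14 of the 60 were lower at Div8pos (background 15.7%) and 0 higher. The list's median difference was -6.56 points, against -5.21 over all genes. Rap1a, a small GTPase that activates integrins, fell to 9.27% at Div8pos, against 38.5% at Div0, and was 22.9% at Div8neg. Rgs13, a brake on G protein signalling in B cells, had 70.3% at Div8pos and 86.6% at Div0, and Rgs16 had 70.0% and 83.8%. The phosphoinositide 3-kinase genes Pik3cg, for the catalytic subunit gamma, and Pik3r6, for one of its adaptors, fell by 11.8 and 16.0 points, and the Rac regulators Elmo1 and Vav2 by 11.3 and 11.5. The chemokine Xcl1, the scavenging receptor Ackr2 and the chemokine-cleaving enzyme gene Dpp4 fell by 12.6, 10.2 and 10.8 points. Gpr35, Rac2 and Pak1 were lower as well. At Div8neg, Rap1a and Pik3r6 were lower than at Div0 by limma (2 of 60, background 1.49%). Against Div8neg, Div8pos was lower by limma in Rap1a (1 of 60, background 2.09%).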

How the data were processed

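Reduced representation bisulfite libraries (MspI and TaqI, single-end reads) were aligned with Bismark and Bowtie2 to mm9; the submitters' processing notes name these tools, without versions. The deposited tables give methylated and unmethylated read counts and their fraction per CpG, per the file headers, with strands joined, and the nearest transcript's symbol and distance to the nearest start site (promoter: 2500 bp upstream to 500 bp downstream). Each CpG was fitted with a quasi-binomial logistic model over all 12 samples. Its dispersion was moderated with limma 3.58.1 in R 4.3.3, which gave 1.157 for every CpG, and p was adjusted by Benjamini-Hochberg over the table. A percent per gene averaged at least 5 CpGs within 50 kb. Same-numbered fractions share a host animal, per the labels; correlations of host deviations over 15 pairs of fractions were between -0.00221 and 0.0107. The statistics were tested on simulated data. Reads carry no molecular identifiers and are not independent molecules. The members, lists and named-gene rule (genes called, or with 2 called CpGs, and the 5 largest CpG differences per comparison at 8 divisions) were chosen with earlier results of these data known. Some single-gene results are not reported here.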

Additional observations from a re-analysis of the deposited data

Results flagged for a closer look

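CpGs of the 29 genes that had reads in the second table only, and so stood outside the counts above, also held lower CpGs. Of 573 such CpGs, 61 in 21 genes were lower at Div8pos than at Div0 (10.6%, against 6.36% of that whole table). Lower CpGs numbered 3 at Div8neg (0.524%, background 0.425%) and 1 at Div5 (0.175%, background 0.0711%). By the same test 0 were higher in any comparison. The backgrounds include CpGs that are also in the first table. These shares thus cover unlike sets, and their differences were not tested. The CpG at Div5 and 1 of the 3 at Div8neg is one more after the Ccr6 start, at chromosome 17, 8436858, 185 bp from it. Its mean was 86.7% at Div0, 89.9% at Div1 and 49.8% at Div3, then 17.9% at Div5, 26.7% at Div8neg and 38.1% at Div8pos, on a median of 13.5 reads. The others at Div8neg were an intronic CpG of Cxcl9, with 40.3% at Div8neg and 93.9% at Div0, and an exonic CpG of Cxcr3, with 69.8% and 100%. Each of them had 8 reads in host 196 at Div8neg. With 2 hosts per fraction, a library far from the others of its fraction could not be looked for.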

How the results depend on the processing

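Counts of lower CpGs are given in the order Div5, Div8neg and Div8pos against Div0. A minimum of 20 reads, which leaves 169 members, gave 0, 4 and 6. limma on log2 ratios gave 0, 2 and 12, with 0 for Div8pos against Div8neg. The dispersion of each CpG alone gave 0 in all 4. A limit of 10 points gave 79 at Div8pos. Leaving out 1 of 12 libraries, the counts ranged over 0 to 2, 2 to 7 and 8 to 35, and 0 to 3 for Div8pos against Div8neg. Lower genes ranged over 0 to 2 at Div8neg, 7 to 9 at Div8pos and 1 to 3 for Div8pos against Div8neg. A limit of 5 points gave 6 lower genes at Div8neg, 19 at Div8pos and 6 for Div8pos against Div8neg. CpGs within 5 kb, which leave 16 genes, gave 2 at Div8pos and 1 for Div8pos against Div8neg, and summed reads gave 2 at Div8neg. The replicate block, a host term, gave 34 lower CpGs at Div8pos in place of 35 and changed no other count.

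Mean differences over member CpGs by summed reads were -1.84, -1.88, -3.19, -5.10 and -7.99 points for Div1, Div3, Div5, Div8neg and Div8pos against Div0, and -2.90 for Div8pos against Div8neg. By equal weight per gene they were -0.0322 at Div3, -3.58 at Div8neg, -7.76 at Div8pos and -4.18 for Div8pos against Div8neg. With at least 20 reads they were -0.444 at Div1, -0.547 at Div3, -2.96 at Div8neg, -5.59 at Div8pos and -2.63 for Div8pos against Div8neg. Without CpGs nearest another gene's start site, an alternative chosen after seeing the data, they were -6.92 at Div8pos and -3.40 for Div8pos against Div8neg. In single hosts they ranged over -0.0703 to 0.108, -0.243 to -0.0840, -1.32 to -0.721, -3.49 to -3.17, -6.80 to -6.39 and -3.31 to -3.22. At Div8pos the sign turned for Cxcl5 within 5 kb (1.79) and for Cxcl13 without host 197 of Div0 (-0.402) or of Div8pos (-0.389), within a range of -0.402 to 0.834 over left-out libraries, and 275 of 278 single-gene values kept their direction. The cause of these shifts was not tested. Most members had fewer than 20 reads in at least 1 library.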
